A study of Mus musculus with 60 samples.

Results

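The clustered histone genes are the replication-dependent histone genes that sit together in 4 groups of the mouse genome, and they were taken as every symbol of the expression table that begins with Hist1h, Hist2h, Hist3h or Hist4h. They number 69 of the 24508 genes in the table. By histone type they are 6 genes for linker histone H1, 19 for H2A, 19 for H2B, 12 for H3 and 13 for H4. By cluster, 55 belong to Hist1 on chromosome 13, 10 to Hist2 on chromosome 3, 3 to Hist3 on chromosome 11 and 1 to Hist4 on chromosome 6. RNA-seq of hippocampus compared 9 wild-type (WT) mice with 9 R6/1 mice, all 30 weeks old and on a mixed CBA x C57BL/6 background. R6/1 mice carry, beside their own huntingtin genes, a transgene with exon 1 of the human huntingtin gene, its own promoter and a long CAG repeat, and they model Huntington's disease. Chromatin held by lamin B1, a filament protein under the nuclear envelope, was mapped in the same tissue and genotypes from 3 pools of 5 mice per genotype. Those pools gave 1 deposited list of lamin B1 domains per genotype, so positions in domains carry no replicate spread. The sex of the mice is not given in the sources used here.

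Each nucleosome wraps DNA around a core of H2A, H2B, H3 and H4, and H1 binds the linker. Cells in S phase make these proteins in bulk from the clustered genes, and their mRNAs are unusual: they have no introns and no poly(A) tail, and end in a short stem-loop that the stem-loop binding protein SLBP holds. Most cells of the adult hippocampus no longer divide and take new histones largely from variant genes such as H3f3a, H3f3b and H2afz, whose mRNAs carry poly(A) tails. Some clustered genes also give polyadenylated transcripts in such cells. The libraries were made with a stranded kit for messenger RNA. Kits of this kind select RNA by its poly(A) tail, so a level here is not a measure of all histone mRNA.

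The genomic sequence after the coding region shows which genes carry the stem-loop signal. The stem-loop was found within 200 bases after the stop codon in 60 of the 67 genes with an annotated stop codon (89.6%), against 65 of 21920 protein-coding genes (0.297%). It began between 22 and 59 bases after the stop codon, with a median of 32. Of 8 forms of the 16 bases, 1 was shared by 36 genes of the H1, H2A, H2B and H3 types, and the H4 genes had forms of their own. The following show the common form in Hist1h2bc (chr13:23776516-23776531, plus strand) and Hist3h2ba (chr11:58762851-58762866, plus strand), and 2 forms of H4 genes in Hist1h4h (chr13:23623327-23623342, plus strand) and Hist1h4j (chr13:21827306-21827321, plus strand). They were read from the mouse genome build NCBIM37 (mm9), with the stem-loop in capitals and 5 flanking bases on each side.
Hist1h2bc: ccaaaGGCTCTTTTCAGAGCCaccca
Hist3h2ba: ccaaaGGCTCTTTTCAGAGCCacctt
Hist1h4h: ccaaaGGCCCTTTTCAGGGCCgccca
Hist1h4j: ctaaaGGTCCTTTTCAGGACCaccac
The capitals pair with each other across a loop, and the H4 forms differ from the common one in the bases of the stem. The signal was not found in the window of Hist1h2al, Hist1h2an, Hist1h2bp, Hist1h2bq, Hist1h2br, Hist2h2bb and Hist2h2be, which says only that these letters do not occur there. The window followed the stop codon of the transcript with the longest coding part. That part had 414 bases in Hist1h2bp, 405 in Hist1h2bq and Hist1h2br and 360 in Hist2h2bb, against 378 in Hist2h2be and Hist1h2bc. In genes with another length the window may lie elsewhere than after the usual H2B stop codon.

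Having the signal in the genome does not place it in the annotated mRNA. In Hist1h2bc, an H2B gene, the annotated first exon ends 9 bases after the stop codon, and a second exon lies beyond an intron of 7554 bases (exon 1 at chr13:23776068-23776490, exon 2 at chr13:23784045-23784357). The stem-loop, 35 bases after the stop codon, falls inside that intron. The 30 bases from the stop codon on (chr13:23776479-23776508, plus strand) show the exon's end, with the stop codon and the first 2 intron bases in capitals.
Hist1h2bc exon end: TGAtcctgccaaGTaagcctccgtagcgaa
The intron begins with GT, the usual start of an intron, ahead of the stem-loop. In all, 16 of the 60 stem-loops lay in no annotated exon. Of these, only that of Hist1h2bc fell in an intron. The others reached beyond the annotated end of their gene, which stopped short of them. The annotated gene ran more than 100 bases past the stem-loop in 18 genes, a limit set after the values were seen. The motif AATAAA, the common signal for adding a poly(A) tail, stood in the last 50 annotated bases of 11 of the 69 genes, and of 54.5% of all 22367 protein-coding genes.

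Few of the clustered genes reached a level well above the detection limit. Levels are in RPKM, reads per kilobase of gene model scaled for depth. Of the 69 genes, 37 averaged 0.5 RPKM or more over the 18 libraries. The other 32 were under it, among them 11 of 12 H3 genes, 9 of 13 H4 genes and 4 of 6 H1 genes, but 6 of 19 H2A genes and 2 of 19 H2B genes. H2B and H2A genes thus made up 30 of the 37. The 5 most abundant were Hist1h2bc (mean 16.9 RPKM), the H2A gene Hist3h2a (15.99), the H2B gene Hist3h2ba (12.5), the H1 gene Hist1h1c (7.53) and the H2B gene Hist2h2be (3.09). Together they held between 51.8% and 69.1% of the summed RPKM of all clustered histone genes in a library. The sum itself averaged 98.1 ± 10.3 RPKM over the 9 WT libraries and 88.5 ± 7.39 over the 9 R6/1 libraries (SD). Of 16 variant histone genes in the table, 5 had a higher mean RPKM than Hist1h2bc: H3f3a (117), H2afz (92.0), H3f3b (82.1), H2afy (36.8) and H1f0 (34.4). Others were lower, among them H2afx (15.9), H2afv (13.8) and H2afj (8.82).

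None of the 5 most abundant genes was annotated to end near the stem-loop: 4 ran past it, and in Hist2h2be none was found. The 42 genes annotated to within 100 bases of the stem-loop had a median of 0.459 RPKM and none was above 1.55. The 18 genes annotated further past it had a median of 0.84 RPKM and reached 16.9. AATAAA stood at the annotated end of 4 of the 5 most abundant genes, Hist1h2bc, Hist3h2ba, Hist1h1c and Hist2h2be, and not of Hist3h2a, which is annotated 1487 bases past its stem-loop. These are descriptions of an annotation, not measured mRNA ends. The gene models behind the RPKM differed from it. The length implied by the deposited values was 508 bases for Hist3h2a, where the annotation gives 1990 exonic bases. It was 725 for Hist1h1c, where 1560 are annotated, and 462 for Hist3h2ba, where 620 are. The levels of these 3 genes were thus taken over shorter models than those that set their class of 3′ end. The same held for most other genes annotated further past the stem-loop. Examples are Hist1h1d (776 implied and 3821 annotated bases), Hist1h2ac (487 and 2482) and Hist2h4 (384 and 1608), while Hist1h2be was close (2510 and 2438). The class medians therefore mostly compare levels not taken over the annotated 3′ ends that define the classes. For Hist1h2bc the implied and annotated lengths were close, at 774 and 736 bases, and for Hist2h2be too, at 2667 and 2618. The implied length of Hist1h2al was 2983 bases against 378 annotated, so its level was taken over a much longer model than its coding region.

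**Figure D1:**
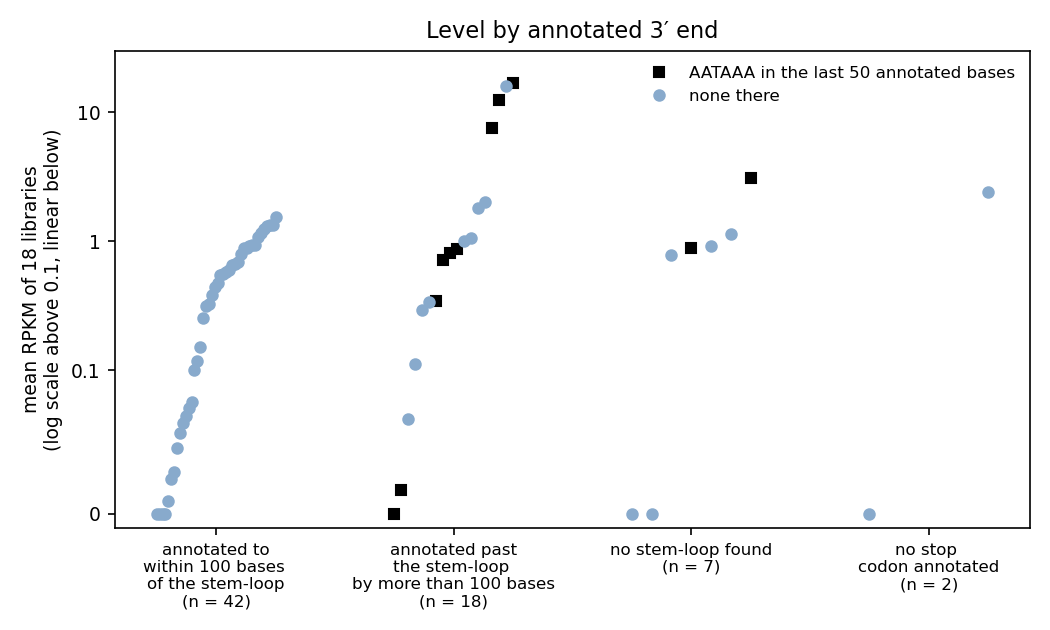
Mean RPKM of each of the 69 clustered histone genes over the 18 libraries (vertical axis, log scale above 0.1 and linear below), in 4 classes of annotated 3′ end; squares mark genes with AATAAA in their last 50 annotated bases. The 42 genes annotated to within 100 bases of the stem-loop reach at most 1.55 RPKM, and the highest points are among the 18 annotated further past it. For most of those 18, RPKM was taken over a shorter model than the annotated one.

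Near-identical copies limit what can be read of single genes. The table lists 8 genes at 0 in every library: Hist1h2ao, Hist1h2ap, Hist1h2bq, Hist1h2br, Hist1h4m, Hist2h2aa1, Hist2h3c1 and Hist2h3c2. At least 57.3% of the 50-base words in the exons of each of these 8 occur elsewhere in the genome, but so do those of 20 genes with reads, 14 of them tested. Of 7 genes with 90% or more of their words repeated, 5 were at 0 and the highest had a mean of 0.152 RPKM. How reads with several matches were counted is not given in the sources used here, so a listed 0 does not show that a gene is silent.

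By counting, most of these genes rest on few reads. The libraries held between 12299434 and 16457022 reads on genes in WT and between 13260311 and 16736544 in R6/1, as recovered from the deposited values, and 0 reads in a library allow up to 3 by counting error alone. All clustered histone genes together had between 818 and 1126 reads in a WT library and between 818 and 1099 in an R6/1 library. Of the 37 tested genes, 30 had a mean of fewer than 20 reads. Markers of hippocampal cell types were detected, with none of 58 listed at 0, and the numbers called lower in R6/1, where 23.5% of all tested genes were, were 6 of 6 tested for dentate granule cells, 4 of 4 for CA1 and 3 of 4 for CA3 pyramidal cells, 5 of 6 for inhibitory neurons, 6 of 6 for astrocytes, 4 of 6 for oligodendrocytes, 3 of 6 for microglia, and 1 each of 4 for oligodendrocyte precursors, 5 for endothelial cells and 5 for progenitors and immature neurons, these last 3 lists close to the share over all genes. None was called higher. The summed level of the dentate granule list was 103.3 to 153.1 RPKM in WT and 64.0 to 71.9 in R6/1, and that of the astrocyte list 840.4 to 1109 and 569.2 to 838.8. None of 5 choroid plexus markers was called, and their sum ran from 25.4 to 1072 RPKM over WT libraries and from 38.8 to 1738 over R6/1 libraries. In bulk tissue fewer cells of a type and less RNA per cell cannot be told apart, and the part of these changes in any histone result was not tested.

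Between genotypes, 4 clustered histone genes were lower in R6/1 and none was higher, and all 4 encode H2B. The test was limma on log2(RPKM + 0.5) over the 14446 genes that averaged 0.5 RPKM or more. The p-values were adjusted by Benjamini-Hochberg and called under 0.05. Differences are on that scale, which understates those of low genes. The 4 calls are 10.8% of the 37 tested, where 48.3% of all 14446 genes were called, 24.8% higher and 23.5% lower in R6/1. Among all tested genes with a mean of fewer than 20 reads, 22.2% were called, and 2 of the 30 such histone genes (6.67%). The share of calls in the clustered histone genes was thus below that of the table. Among H2B genes, 4 of 17 tested were called lower, close to the 23.5% called lower over all tested genes. A decrease particular to H2B is thus not shown by the number of calls. With own-total scaling, in which a library's recovered reads on genes set its depth and which moved the median of all genes by 0.07, the calls over all genes split into 5110 higher and 2526 lower against 3586 and 3394, and 3 clustered histone genes were called, all lower. At an unadjusted limma p under 0.05, 1 was higher (Hist2h2bb) and 6 were lower. Without a limit on the level, 2 further genes with at most 2.39 reads on average were called higher, Hist1h3c and Hist1h4a.

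Hist1h2bc, the most abundant of them, showed the clearest difference. Its level ran from 16.7 RPKM (median 20.6) to 23.0 in the WT libraries and from 10.1 (median 13.6) to 16.5 in the R6/1 libraries. Every R6/1 library was below every WT library in the deposited RPKM, although the highest R6/1 and lowest WT values lay close. With own-total scaling R6/1 replicate 2 lay above WT replicate 2, so the full separation rests on the deposited scaling. The mean fell from 20.15 ± 2.29 to 13.6 ± 2.25 RPKM (SD, n = 9 per genotype), which is 67.4% of WT. The log2 difference was -0.56 (SE 0.09, limma adjusted p = 3.11e-05), from a mean of 193 reads per library. No other clustered histone gene separated the genotypes without overlap, where 11.9% of all tested genes did. In the authors' deposited table its adjusted p was 4.34e-08. That table calls 2 of its 52 clustered histone genes, where it calls 40.4% of 18395 genes.

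Hist3h2ba, an H2B gene of the small Hist3 cluster, ran from 10.5 RPKM (median 13.6) to 17.6 in WT and from 9.76 (median 10.8) to 14.2 in R6/1. The ranges overlapped: 2 WT libraries lay among the lower R6/1 values, and R6/1 replicate 2 lay among the WT values. The log2 difference was -0.32 (SE 0.10, limma adjusted p = 0.00828), from a mean of 85.6 reads. The authors' deposited table also called it, at an adjusted p of 0.00881.

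The other 2 calls rest on few reads. Hist1h2bj ran from 1.16 RPKM (median 1.55) to 1.92 in WT and from 0.647 (median 1.08) to 1.67 in R6/1, from a mean of 8.61 reads. The overlap was broad, and the log2 difference was -0.37 (SE 0.11, limma adjusted p = 0.0106). Hist1h2bg ran from 1.61 RPKM (median 2.18) to 3.29 in WT and from 0.738 (median 1.67) to 2.42 in R6/1, from a mean of 13.8 reads. Its log2 difference was -0.38 (SE 0.15, limma adjusted p = 0.0370). That call was lost without WT replicate 4 (0.0546), 5 (0.0696) or 9 (0.0740) and without R6/1 replicate 1 (0.0653), 3 (0.0686), 4 (0.0667) or 9 (0.0540), each an adjusted p. Neither gene passed in the authors' deposited table, where the adjusted p was 0.175 for Hist1h2bj and 0.109 for Hist1h2bg.

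**Figure D2:**
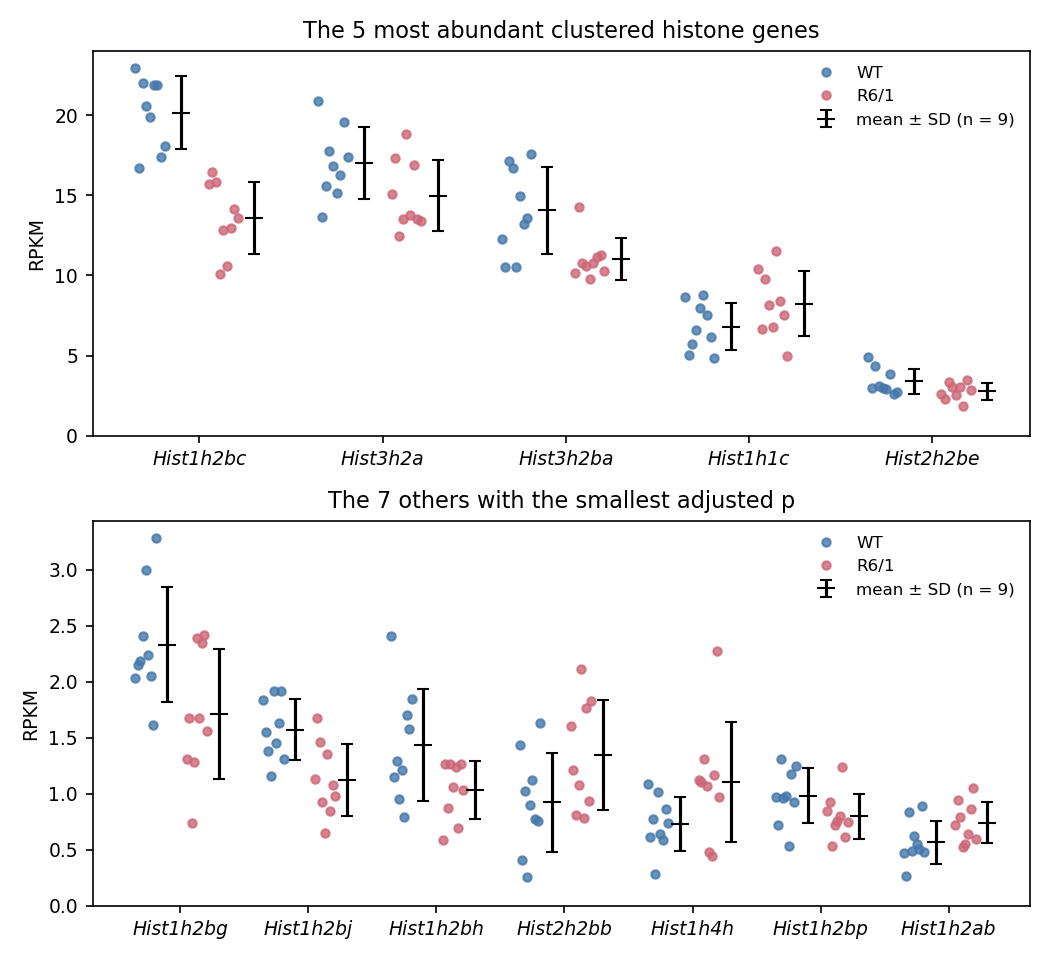
RPKM in each of the 9 WT and 9 R6/1 libraries (points) with the mean ± SD beside them, for the 5 most abundant clustered histone genes (upper axis) and for 7 others with the smallest adjusted p (lower axis). In the deposited scaling shown, the R6/1 points of Hist1h2bc all lie below its WT points, at 10.1 to 16.5 against 16.7 to 23.0 RPKM. The genotypes overlap in the other 11 genes.

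The H2B genes of the Hist1 cluster share sequence with Hist1h2bc, which bears on how far they can be read apart. Of the 50-base words in the exons of Hist1h2bg and Hist1h2bj, 45.0% and 35.3% also occur in exons of Hist1h2bc. All 14 H2B genes of Hist1 other than Hist1h2bc, with Hist1h2bg and Hist1h2bj among them, share between 8.4% and 56.9% with it. Hist3h2ba, Hist2h2be, Hist2h2bb and Hist3h2bb-ps share none. The part of shared reads in the lower values of Hist1h2bg and Hist1h2bj was not tested. Of the words of Hist3h2ba itself, 23.6% occur elsewhere in the genome, and it shares 125 words with Hist3h2bb-ps.

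Of the 13 other tested H2B genes, 10 had a log2 difference below 0 and 3 above it. For all 17 tested H2B genes the median was -0.19 and 14 were below 0, where 49.3% of all tested genes were below 0 with a median of 0.00. Of the H2B genes, 13 had fewer than 20 reads on average and 11 of those were below 0, where 58.2% of all such genes were, with a median of -0.06. With libraries scaled to their own total, or quantile normalized, 12 of the 17 were below 0. Among the uncalled, Hist2h2be ran from 2.64 RPKM (median 2.99) to 4.92 in WT and from 1.85 (median 2.84) to 3.49 in R6/1, with a log2 difference of -0.24 (SE 0.12, limma adjusted p = 0.0936) from 122 reads. Hist1h2bh ran from 0.796 RPKM (median 1.29) to 2.41 in WT and from 0.583 (median 1.06) to 1.27 in R6/1, with a difference of -0.32 (SE 0.14, adjusted p = 0.0690). It passed the threshold without WT replicate 4 (adjusted p = 0.0427) or WT replicate 6 (0.0241). Hist1h2bp, at 0.536 (median 0.974) to 1.31 RPKM in WT and 0.530 (median 0.752) to 1.24 in R6/1, differed by -0.19 (SE 0.11, adjusted p = 0.172) and passed only without WT replicate 6 (0.0493). In these genes the R6/1 medians were the lower ones and the ranges overlapped.

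Hist2h2bb went the other way from most H2B genes, at 0.252 RPKM (median 0.898) to 1.63 in WT and 0.787 (median 1.21) to 2.11 in R6/1. Its log2 difference was 0.40 (SE 0.19, limma adjusted p = 0.0862) from 8.28 reads, and it passed without WT replicate 1 (0.0493) or WT replicate 9 (0.0388). The remaining H2B genes did not pass either: Hist3h2bb-ps, annotated as a pseudogene, Hist1h2be, Hist1h2bl, Hist1h2bn, Hist1h2bk, Hist1h2bf, Hist1h2ba, Hist1h2bb and Hist1h2bm had means between 0.581 and 2.42 RPKM. Of these, Hist1h2be had the most reads, a mean of 67.4, and a log2 difference of 0.10 (SE 0.12, adjusted p = 0.492).

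None of the 13 tested H2A genes was called by limma or in the authors' deposited table, and 1, Hist3h2a, had an unadjusted limma p under 0.05. Their median difference was 0.06, with 5 below 0. Hist3h2a, the second most abundant clustered histone gene, ran from 13.6 RPKM (median 16.8) to 20.9 in WT and from 12.5 (median 13.7) to 18.9 in R6/1. The ranges overlapped over most of their length, and the log2 difference was -0.18 (SE 0.08, limma adjusted p = 0.0808) from 120 reads. It passed the threshold without WT replicate 2 (0.0330) or R6/1 replicate 5 (0.0255). Hist1h2ab ran from 0.264 RPKM (median 0.503) to 0.888 in WT and from 0.524 (median 0.723) to 1.05 in R6/1, from a mean of 4.94 reads, with a difference of 0.23 (SE 0.11, adjusted p = 0.104), and passed without WT replicate 8 (0.0457). The others, Hist2h2ac, Hist1h2ac, Hist1h2al, Hist1h2ad, Hist1h2ai, Hist1h2ae, Hist1h2ag, Hist1h2an, Hist1h2ah, Hist1h2af and Hist2h2ab, had means between 0.546 and 1.33 RPKM and log2 differences between -0.08 and 0.32.

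H1 was represented by 2 tested genes. Hist1h1c, the H1 gene with by far the most reads, ran from 4.87 RPKM (median 6.60) to 8.78 in WT and from 4.98 (median 8.13) to 11.5 in R6/1. Its ranges overlapped, and its log2 difference was 0.25 (SE 0.14, limma adjusted p = 0.146) from 82.2 reads. It passed the threshold without R6/1 replicate 9 (0.0386). Hist1h1e, at a mean of 0.940 RPKM, differed by 0.06 (SE 0.13, adjusted p = 0.719).

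The core histones H3 and H4 were close to the limit of what the libraries measure. Hist2h3b was the only tested H3 gene, with a mean of 0.886 RPKM and a log2 difference of 0.27 (SE 0.20, limma adjusted p = 0.261). Of the 4 tested H4 genes, Hist1h4h ran from 0.286 RPKM (median 0.738) to 1.08 in WT and from 0.446 (median 1.10) to 2.28 in R6/1, from a mean of 6.00 reads. Its difference was 0.34 (SE 0.17, adjusted p = 0.110), and it passed without R6/1 replicate 5 (0.0415) or R6/1 replicate 6 (0.0375). Hist1h4i, Hist2h4 and Hist1h4k had means between 0.556 and 1.06 RPKM and differences between 0.04 and 0.08. Below 0.5 RPKM, 24 genes had any reads, with at most 3.89 on average. The R6/1 mean was the higher one in 20 of them, among them 8 of 8 H4 genes and 6 of 9 H3 genes, which were not tested under this filter. The same share over all genes under the filter was not counted. These counts thus do not show a rise particular to H3 or H4 genes.

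**Figure D3:**
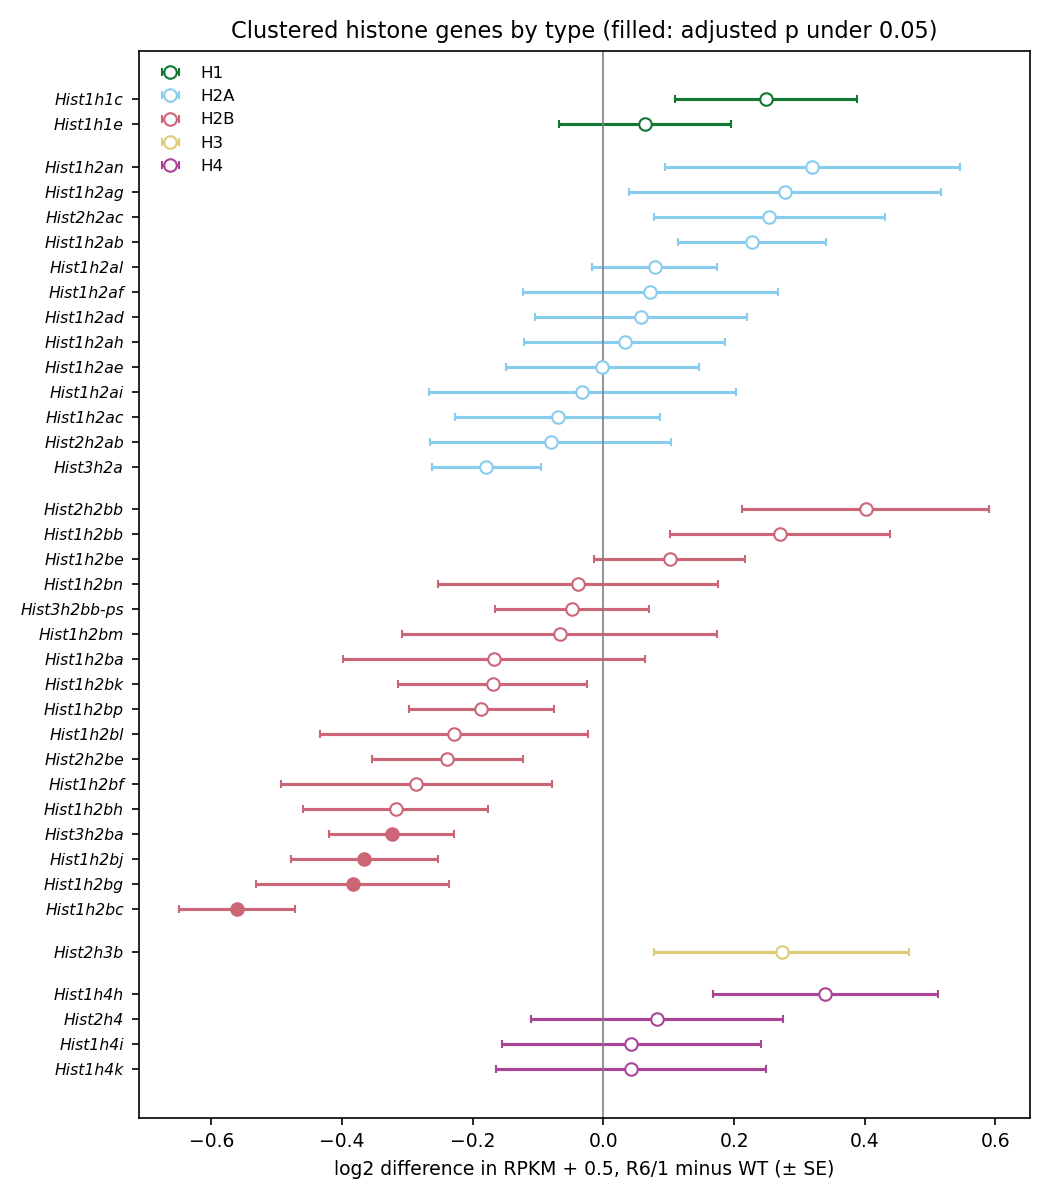
Log2 difference in RPKM + 0.5 between R6/1 and WT with its standard error, for the 37 tested clustered histone genes, ordered within each histone type. The 4 filled points, all H2B, have an adjusted p under 0.05; 14 of the 17 H2B points lie below 0, and all H1, H3 and H4 points lie above it.

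Summed by type, H2B, the type with the highest sum, differed most between genotypes in RPKM. In proportion to the WT sum, H3 and H4 differed more, upward, from at most 23 and 57 reads in a library. H1 differed upward by about the same proportion as H2B did downward, from at most 153 reads in a library. The H2B genes together had 56.8 ± 6.06 RPKM in WT (SD, n = 9) with a range of 45.8 to 65.05, and 44.4 ± 4.28 in R6/1 with a range of 39.4 to 51.7. Without Hist1h2bc the H2B sums were 36.7 ± 4.38 and 30.85 ± 2.92, and without Hist3h2ba too they were 22.6 ± 3.96 and 19.85 ± 2.28. The H2A sums were 26.65 ± 3.38 in WT and 25.7 ± 3.60 in R6/1, a difference within the spread whose sign turned when libraries were scaled to their own total. The H1 sums were 8.05 ± 1.61 and 9.89 ± 2.41, those of H4 5.04 ± 1.37 and 6.51 ± 1.61, and those of H3 1.50 ± 0.443 and 2.00 ± 0.461. The share of H2B in the summed level of all clustered histone genes was 58.0% ± 2.1 in WT and 50.3% ± 3.6 in R6/1. No test was made of these sums. By cluster, Hist1 had 56.9 ± 7.38 RPKM in WT and 52.2 ± 6.13 in R6/1, Hist2 7.60 ± 1.83 and 7.91 ± 0.587, and Hist3 33.5 ± 3.73 and 28.35 ± 2.57.

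Many H2A and H2B genes stand head to head and share the stretch between their starts. There are 13 such pairs with starts at most 500 bases apart, separated by 167 to 305 bases. The 3 pairs with a called H2B gene are shown on the plus strand from the H2A start to the H2B start, because the same stretch served a gene that was called and one that was not. They lie at chr13:23775818-23776067 (Hist1h2ac and Hist1h2bc), chr13:23663090-23663264 (Hist1h2ae and Hist1h2bg) and chr13:22134819-22135082 (Hist1h2ag and Hist1h2bj) of NCBIM37. Capitals mark 3 promoter motifs on either strand: the box CCAAT, the TATA box spelled TATAAA, and the octamer ATTTGCAT.
Hist1h2ac/Hist1h2bc: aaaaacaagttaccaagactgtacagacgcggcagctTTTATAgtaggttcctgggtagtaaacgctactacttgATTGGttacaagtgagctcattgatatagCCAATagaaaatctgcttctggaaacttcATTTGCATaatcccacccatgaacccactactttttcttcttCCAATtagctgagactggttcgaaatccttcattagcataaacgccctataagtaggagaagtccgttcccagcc
Hist1h2ae/Hist1h2bg: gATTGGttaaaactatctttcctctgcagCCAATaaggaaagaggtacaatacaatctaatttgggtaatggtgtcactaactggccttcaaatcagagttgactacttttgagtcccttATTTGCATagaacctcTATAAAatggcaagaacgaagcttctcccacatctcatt
Hist1h2ag/Hist1h2bj: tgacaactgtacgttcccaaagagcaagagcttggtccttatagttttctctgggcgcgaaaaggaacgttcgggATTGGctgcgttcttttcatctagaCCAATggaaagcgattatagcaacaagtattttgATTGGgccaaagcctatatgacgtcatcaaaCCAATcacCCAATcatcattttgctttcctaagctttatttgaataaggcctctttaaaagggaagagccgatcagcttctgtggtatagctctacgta
The first motif, a box bound by NF-Y, occurs 3, 2 and 5 times in these stretches. The octamer, bound by POU factors such as OCT1 and a known part of H2B promoters, has 1 match in each of the Hist1h2bc and Hist1h2bg stretches and none in that of Hist1h2bj. Over promoters taken as 250 bases before to 50 after the start, on both strands, the octamer was in 9 of 19 H2B and 7 of 19 H2A genes and in no H1, H3 or H4 gene, against 1.73% of 22367 protein-coding genes. For each motif, a match between head-to-head starts counts for both genes when it lies in both promoters. All of the H2A genes with the octamer except Hist1h2ab share that match with their H2B partner. CCAAT was in all 19 H2A and all 19 H2B promoters, in 6 of 6 of H1, 11 of 12 of H3 and 4 of 13 of H4, against 37.9%. TATAAA was in 12 H2A, 10 H2B, 4 H1, 5 H3 and 7 H4 promoters, against 13.4%. Of the tested H2B genes, 2 of 9 with the octamer and 2 of 8 without it were called.

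In 9 pairs both genes were tested. The H2B gene had the lower log2 difference in 8 of them, the exception being Hist3h2a with Hist3h2bb-ps. Hist1h2ac, the partner of Hist1h2bc, had 1.03 ± 0.318 RPKM in WT and 0.988 ± 0.413 in R6/1 (log2 difference -0.07, SE 0.16). Hist1h2ae, the partner of Hist1h2bg, had 0.807 ± 0.290 and 0.811 ± 0.326 (0.00, SE 0.15), and Hist1h2ag, the partner of Hist1h2bj, 0.682 ± 0.434 and 0.902 ± 0.406 (0.28, SE 0.24). Whether the genes of a pair moved apart was tested on the H2B minus H2A log2 level of each library, by an exact permutation of the genotype labels (48620 arrangements, two-sided), a test chosen after the values were seen. In the pair of Hist1h2bc that level was 3.77 ± 0.36 in WT and 3.28 ± 0.488 in R6/1 (exact permutation p = 0.0286, adjusted over the 9 pairs 0.147). The shift was -0.38 for Hist1h2bg (p = 0.0644) and -0.64 for Hist1h2bj (p = 0.0516), both by the exact permutation test and both 0.147 after adjustment. No pair reached an adjusted p of 0.05, so a difference within a pair was not shown at these read numbers. The H2A partners of these 3 H2B genes had means of 5.56 to 7.28 reads.

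**Figure D4:**
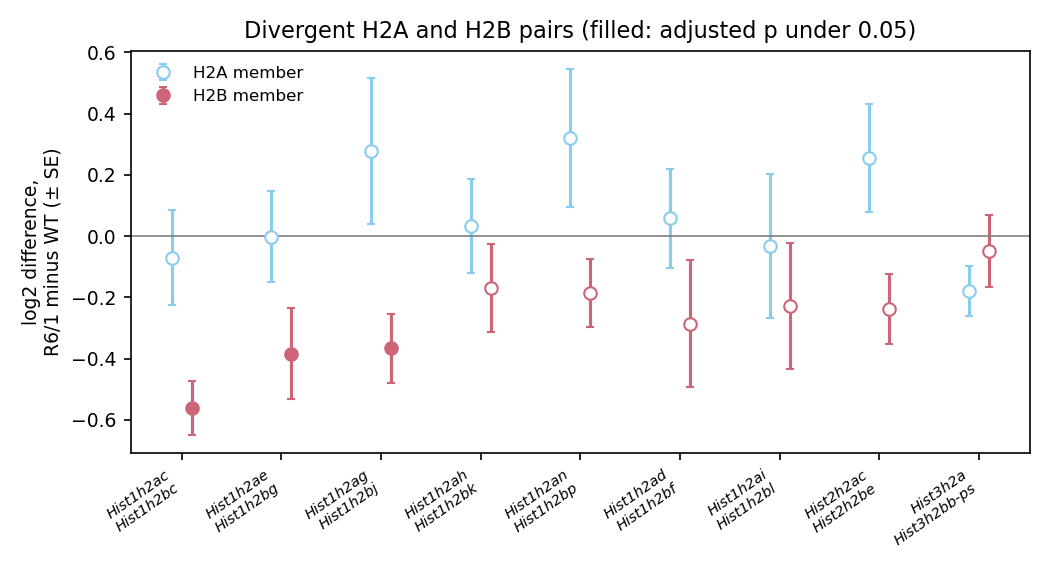
Log2 difference between R6/1 and WT with its standard error for both genes of the 9 head-to-head pairs in which both were tested, the H2A gene on the left and the H2B gene on the right. The H2B point is the lower one in 8 pairs, with 3 filled points at an adjusted p under 0.05, and the standard errors of low H2A genes are wide.

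The Hist1 genes on chromosome 13 form 2 blocks, and only 1 of them lay in a lamin B1 domain. A block of 23 genes (chr13:21807632-22135545) had its starts inside a WT domain of 9.03 Mb (chr13:14319001-23347000), which ranked 84 of 145 by the authors' domain score. The other block of 31 genes (chr13:23622919-24026720) lay outside domains of both genotypes, at least 275.9 kb from a WT and 164.9 kb from an R6/1 domain. Hist1h2al, which the annotation places apart at chr13:51298057-51298434, and all Hist2, Hist3 and Hist4 genes were also outside. In all, 23 of 69 clustered histone genes started in a WT domain, where 4066 of 20332 matched genes did, and none in an R6/1 domain, where 3199 did (15.7%).

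In R6/1 the long WT domain was listed as 2 pieces (chr13:14319001-17760000 and chr13:22163001-23458000) with 4.4 Mb between them that no R6/1 domain covers. The 23 genes fall at the end of that stretch: Hist1h2bj, the nearest, starts 27.9 kb from the second piece and the farthest 355.0 kb from it. Domain bounds are placed in steps of 37 kb, so the nearest genes lie within 1 step of an R6/1 bound. With 1 list per genotype it cannot be told whether this gap exceeds the spread between pools.

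Median RNA levels over the 18 libraries were low in both blocks, at 0.556 RPKM inside the WT domain and 0.476 in the block outside domains. A low level was thus not particular to the block inside the domain. Of the 23 genes inside it 12 were tested, the highest mean was 1.55 RPKM (Hist1h2bl), and 5 were listed at 0. The highest mean in the block outside domains was 16.9 RPKM (Hist1h2bc). The median log2 difference of the 12 was -0.04, and 1 was called, Hist1h2bj, lower in R6/1. In the block outside domains 15 of 31 genes were tested, the median was 0.06, and 2 were called lower, Hist1h2bc and Hist1h2bg. Both counts are below the 23.5% of all tested genes that were called lower. Of 16 other tested genes in the 4.4 Mb stretch, 4 were called higher and 3 lower, with a median of 0.03, which is near the shares over all tested genes (24.8% and 23.5%). No clustered histone gene in the stretch was called higher.

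**Figure D5:**
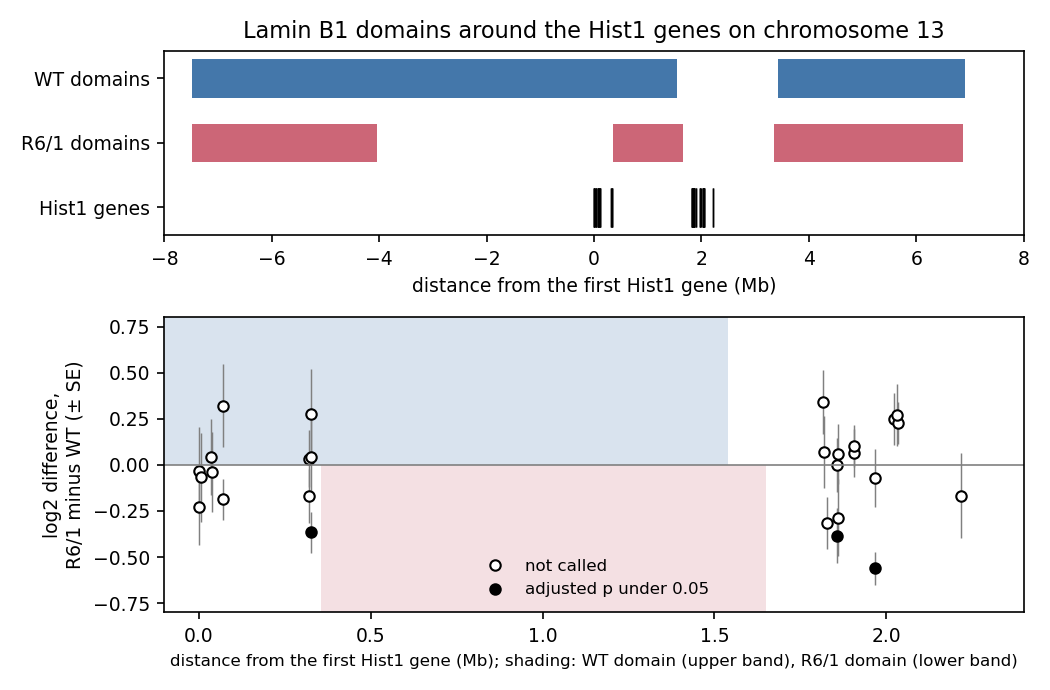
Upper axis: lamin B1 domains of WT and R6/1 (bars) and the starts of 54 Hist1 genes (ticks) along chromosome 13, as distance from the first Hist1 gene in Mb. Lower axis: log2 difference between R6/1 and WT with its standard error for the tested genes at the same distances, with WT domains shaded in the upper band and R6/1 domains in the lower one. The first block lies under the WT domain and in the gap between 2 R6/1 domains, and the 3 called genes are 1 in that block and 2 in the second.

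Of 14 tested genes for transcription of histone genes and processing of their pre-mRNA, 8 were higher and 1 was lower in R6/1, with a median log2 difference of 0.13, where 24.8% of all tested genes were higher and 23.5% lower. Slbp, whose protein binds the stem-loop, rose from 9.40 ± 0.787 to 13.3 ± 1.31 RPKM (SD, n = 9; log2 difference 0.47, limma adjusted p = 1.42e-06) with no overlap between genotypes. Npat, a coactivator of histone gene transcription, rose by 0.33 (adjusted p = 6.88e-05). Lsm11, a protein of the U7 particle that directs cleavage after the stem-loop, fell from 9.65 ± 1.85 to 4.90 ± 0.509 RPKM (log2 difference -0.90, adjusted p = 8.82e-08), also without overlap.

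Of 22 tested histone chaperones, 15 were higher and none lower, with a median of 0.20, where 24.8% of all tested genes were higher and 23.5% lower. The largest increases were those of Asf1b, a chaperone of H3 and H4 (0.62, limma adjusted p = 0.00399, from 14.4 reads), Nap1l2 (0.43, adjusted p = 2.74e-06) and Nap1l5 (0.35, adjusted p = 3.79e-05), of a family that includes H2A-H2B chaperones. Of 11 tested variant histone genes, 4 were higher and 3 lower, not far from those shares over all tested genes. H2afy2 and H2afy, for macroH2A proteins, rose by 0.33 and 0.29 on the log2 scale (adjusted p = 3.01e-05 and 1.72e-05), and Cenpa, the H3 variant of centromeres, fell by 0.52 (adjusted p = 0.00068, from 14.8 reads). H3f3a and H3f3b did not pass, with differences of -0.08 and 0.03.

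Of 13 tested genes of S phase and mitosis, 6 were higher and 2 lower, where 24.8% and 23.5% of all tested genes were. Mcm6 of the replicative helicase fell by 0.40 (limma adjusted p = 0.000145), while Pcna, the sliding clamp, and Rrm1 of ribonucleotide reductase rose by 0.37 (7.46e-08) and 0.36 (8.55e-06). A further 9 genes of this list were under the limit for testing, 6 with a lower and 3 with a higher R6/1 mean. Among these 9, only Mki67 and Top2a, which mark dividing cells, had no overlap between genotypes. Mki67 had 0.292 ± 0.0563 RPKM in WT and 0.105 ± 0.0329 in R6/1, from a mean of 29.3 reads. Top2a had 0.236 ± 0.0737 and 0.0403 ± 0.0187, from a mean of 10.4 reads. The shares over all genes under the limit, for overlap and for direction, were not counted. The R6/1 mean was the higher one for Ccnb1 (0.128 and 0.189), Birc5 (0.325 and 0.421) and Tk1 (0.253 and 0.268 RPKM in WT and R6/1).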

How the data were processed

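RNA-seq of 18 hippocampal samples and lamin B1 domain lists were analysed; ATAC-seq and ChIP reads were not analysed here. RNA came from 9 biological replicates per genotype with RNA integrity numbers of 9 to 10, per the labels' protocols. The authors deposited RPKM for 24508 genes, and TopHat, DESeq2 and build mm9 are named in the submitters' processing notes without versions; the gene annotation is not given in the sources used here. The authors' deposited table holds log2 fold changes, p-values with their adjustment, and a test score. Each deposited domain carries a score by the authors, which served to rank domains of 1 list.

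Between 99.89% and 99.92% of a library's deposited RPKM values gave whole reads (tolerance 0.05 of a read) once gene length was divided out, which gave reads per library. Genes were tested with limma 3.58.1 (R 4.3.3; lmFit and eBayes with trend) on log2(RPKM + 0.5), two-sided. Positions, exons and sequences came from the NCBIM37 genome with GENCODE annotation, in which all 69 symbols matched; the length behind RPKM was scaled on 2902 genes with 1 transcript. The fit was tested on simulated data. All tested clustered histone genes are named, with full values for those called without overlap, the 12 with the smallest adjusted p and the 5 most abundant; of related lists, the 3 largest called differences. Members, gene lists and marker lists were chosen with earlier results of these data known. Alternatives were other pseudocounts (0.1, 1), filters, scalings and limma settings, voom, a replicate block, the authors' table and leaving out each library. Other columns of per-sample values left unused number 0.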

Additional observations from a re-analysis of the deposited data

Results flagged for a closer look

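Among the 24 groups of 9 libraries formed by the 12 genes described in full, 2 held a library far from the others, where chance gives about 1 in 20 groups. R6/1 replicate 2 had 14.24 RPKM of Hist3h2ba (110 reads), against 11.3 in the next highest R6/1 library, and without it the log2 difference was -0.37 (limma adjusted p = 0.00262). R6/1 replicate 8 had 2.278 RPKM of Hist1h4h (15 reads), against 1.31 in the next highest, and without it the difference was 0.23 (adjusted p = 0.221).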

How the results depend on the processing

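The calls of Hist1h2bc and Hist3h2ba held under all 10 other settings of the fit and without each of the 18 libraries. Hist1h2bj was lost in the authors' deposited table (adjusted p = 0.175), was below a filter of 2 RPKM, and passed under the other settings and without each library. Hist1h2bg was lost with no filter (0.0577), with own-total scaling (0.0751), with quantile normalization (0.0661) and in the authors' deposited table (0.109). The number of clustered histone genes lower in R6/1, 4 in the fit reported, was 2 in the authors' deposited table and between 3 and 6 when a library was left out. The number higher, 0 in the fit reported, was 2 with no filter (Hist1h3c and Hist1h4a), 1 with quantile normalization (Hist1h2ab, adjusted p = 0.0393), and between 0 and 1 when a library was left out. With the replicate block it was 2, Hist1h1c (adjusted p = 0.0175) and Hist2h2bb (0.0492); the 4 lower calls were the same. Same-numbered libraries of the genotypes correlated by -0.053 to 0.237 in their deviations, over 0.1 in 3 of 9 pairs, and nothing in the labels pairs them. Of S phase and mitosis genes, 1 was lower under own-total scaling and 1 under quantile normalization, against 2, since E2f1 was lost. Own-total scaling moved the median of all genes by 0.07. Summed H2A differed by -0.95 RPKM between genotypes, and by 0.385 under that scaling. Counts in domains and of stem-loops were the same under the other definitions tried. Voom with TMM was not run; voom with the size factors of the deposited values, added after seeing the data, called the same 4 genes. Depth limits most of these genes: 30 of 37 tested had fewer than 20 reads on average.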
